A study of Sus scrofa with 21 samples.

Results

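The nuclear-encoded subunits of respiratory complexes I, III and IV were examined in testis RNA from Landrace and Duroc boars. Members were the genes whose pig symbol begins with NDUF and a subunit letter and number, with UQCR, or with COX4 to COX8 and a letter, and which reached at least 1 CPM (counts scaled to the reads counted on genes in a library) in at least 11 of the 21 libraries. This gave 42 members, 26 of complex I, 6 of complex III and 10 of complex IV, among 12835 genes at that level and 25880 genes in all. The rule did not use the hyperactivity groups or the breed. Of 53 symbols of this kind in the name table, 47 had an identifier in the count tables, and the other 6 (NDUFA1, NDUFA7, NDUFA13, NDUFC1, UQCRB and COX6C) were not analysed here. The remaining 5 genes stayed under the level rule. COX8A and NDUFS6 reached 1 CPM in 3 libraries each, NDUFS8 in 2, COX7A1 in 10 and COX4I2 in 0.

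The study asked which testis transcripts differ between boars whose sperm show high or low hyperactive motility, the vigorous whip-like beating that sperm adopt before fertilization. Testis tissue was taken at slaughter from boars of an artificial insemination station, and each library is 1 boar. In Landrace, contrast (i) sets 4 boars with high hyperactivity on the day of collection, day 0 (L5, L6, L7 and L8), against 4 with low (L1, L2, L3 and L4), and contrast (iii) sets 3 boars with a high change over 96 h of semen storage (L7, L13 and L15) against 4 with a low change (L2, L9, L10 and L12), so that L2 and L7 enter both by the labels. The study's own table lists boars named L11 and L14 in contrast (iii) in place of L2 and L7. It gives L11 the read depth and number of ejaculates of L2, and L14 those of L7. The table and the labels, which were followed, can thus name the same boars. In Duroc, contrast (ii) sets 5 boars labelled high at day 0 (D1 to D5) against 3 labelled low (D6, D7 and D9). The deposited labels and the study's own table give opposite groups for each of these Duroc boars except D5 when matched by name. The names do not match in depth, however. D2 and D3 have 84446404 and 125576407 counts, more than the reads the table gives under these names. These are the deepest Duroc libraries and are labelled high, and the table's deepest Duroc boars are in its high group too. A match of the other boars by depth was not tested. Duroc groups are written here as labelled, and a direction in Duroc is that of the labels. The labels name no treatment, and they separate the boars by breed and hyperactivity group only. Ages of the single boars are not given in the sources used here.

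The respiratory chain sits in the inner mitochondrial membrane. Complex I takes electrons from NADH, complex III passes them from ubiquinol to cytochrome c, and complex IV hands them to oxygen, while protons are pumped across the membrane to drive ATP synthesis. A few subunits of each complex are encoded in mitochondrial DNA and the others in the nucleus. In testis the chain changes during germ cell development, and some complex IV subunits have forms restricted to a tissue. COX6B2 is the form of male germ cells, and COX6A2 that of heart and skeletal muscle. In sperm the mitochondria are wound around the midpiece of the tail.

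Library totals ran from 41358671 to 125576407 counts, and the 42 members took 0.187% to 0.274% of them. No libraries of the same label group were duplicates of each other. L2 and L7, each alone in a label group, and pairs across groups were not compared in this way, though all library totals differ. Germ cell and Leydig cell markers were present in every library, with summed levels of 4970 to 11600 CPM for 6 elongating spermatid markers and of 593 to 4550 CPM for 6 Leydig cell markers. AMH, a Sertoli cell product of the immature testis, had 0 counts in each library. L13 had the lowest mean level of the elongating spermatid markers, 7.76 on the log2 CPM scale, where the other boars ran from 8.31 to 9.28. Levels below are CPM after TMM normalization (trimmed mean of M-values) over all 21 libraries. Transcript lengths were not used, so levels are compared between boars and not between genes.

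In Landrace boars with high hyperactivity at day 0, a part of the chain was lower. Of the 42 members, 11 were lower and 1 was higher at an adjusted p under 0.05 (edgeR's quasi-likelihood test, Benjamini-Hochberg adjustment over 12979 genes). Over all genes tested, 20.7% passed, 15.8% lower and 4.82% higher. The members' share was 28.6% in all, 26.2% lower and 2.38% higher, and their median log2 fold change of high over low was -0.20, against 0.03 for all genes. The lower members were spread over the 3 complexes, with 6 of 26 in complex I, 2 of 6 in complex III and 3 of 10 in complex IV. The 4 high boars did not overlap the 4 low boars in 13 members. The high boars were below in 12 of these, where 19.8% of 12786 genes behaved so, and above in 1, where 8.08% did. In bulk tissue, fewer cells of a type and less RNA in each cell cannot be told apart.

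These calls rested on few boars. Without L3 or without L6, edgeR called 0 of the 42 members, and only 1 gene of all those tested passed in each fit. At an unadjusted p under 0.05 there were 16 and 14 members in these fits, where the count over all genes is not given. With all 8 boars 17 of 42 members, 40.5%, were under this level, as were 5415 of 12979 genes, a similar share. Without L1 or L8 the number of called members was 3, 7.14% of the members, where 7.56% and 9.49% of all genes passed. Without L4 it was 5, 11.9% against 11.6%, and without L5 it was 16, 38.1% against 29.1%. The members' share was thus no larger than that of all genes without L1 or L8 and about equal to it without L4. With DESeq2 on all 8 boars it was 31% (13 of 42) against 30.2%. The direction of the 12 called members was the same in all 8 fits that left out 1 boar.

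Complex I takes in NADH at the tip of its matrix arm, where NDUFV1 holds the flavin. NDUFV1 was at 4.40, 4.40, 5.57 and 4.29 CPM in the low boars L1 to L4 and at 2.40, 1.46, 3.39 and 1.02 CPM in the high boars L5 to L8. Every high boar lay below every low boar, and the log2 fold change was -1.14 (SE 0.35, edgeR adjusted p = 0.043). NDUFV2, the iron-sulfur subunit that is its partner, was at 131, 114, 116 and 129 CPM in the low boars and at 152, 112, 111 and 194 CPM in the high boars. The groups overlapped, and its log2 fold change was 0.23 (SE 0.18, edgeR adjusted p = 0.32). NDUFA2, a small accessory subunit of the same arm, had the lowest log2 fold change of the members. Its level was 9.65, 5.64, 7.15 and 10.3 CPM in the low boars and 2.90, 1.84, 4.17 and 2.11 CPM in the high boars, without overlap. The log2 fold change was -1.54 (SE 0.31, edgeR adjusted p = 0.021).

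Neither NDUFS1 nor NDUFS3, core subunits of the matrix arm, passed. NDUFS1, which carries several iron-sulfur clusters, was at 57.4, 64.2, 58.2 and 63.6 CPM in the low boars and at 58.6, 94.8, 71.9 and 80.5 CPM in the high boars. L5 lay among the low boars and the other 3 high boars above them, with a log2 fold change of 0.34 (SE 0.15, edgeR adjusted p = 0.0999). NDUFS3, which has its place near the quinone site, averaged 69.9 ± 13.4 CPM in the high boars and 63.5 ± 10.4 CPM in the low boars (SD, n = 4 each), a log2 fold change of 0.16 (edgeR adjusted p = 0.483). Scaled by library totals alone, the log2 fold change stayed positive for NDUFS1 and turned negative for NDUFS3, and neither passed.

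In the membrane arm, which pumps protons and is built around mitochondrially encoded subunits, 4 accessory subunits were lower. NDUFB7 was at 2.94, 2.001, 2.14 and 2.74 CPM in the low boars and at 1.17, 0.434, 1.56 and 0.682 CPM in the high boars. It is the shallowest of the called members, with 31 reads in L6 and 179 in L3. NDUFA11 was at 34.9, 26.0, 27.2 and 31.9 CPM in the low boars and at 14.98, 6.95, 21.2 and 8.20 CPM in the high boars. Neither gene overlapped between the groups, and L6 and L8 were lowest for both. The log2 fold changes were -1.32 for NDUFB7 (SE 0.39, edgeR adjusted p = 0.038) and -1.19 for NDUFA11 (SE 0.32, edgeR adjusted p = 0.029). NDUFB8 averaged 79.4 ± 11.9 CPM in the high boars and 122 ± 19.7 CPM in the low boars (SD, n = 4 each), a log2 fold change of -0.59 (SE 0.16, edgeR adjusted p = 0.031). NDUFA8, named after its values were seen, averaged 19.4 ± 5.37 CPM and 32.3 ± 4.83 CPM (SD, n = 4 each), a log2 fold change of -0.71 (SE 0.22, edgeR adjusted p = 0.042).

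NDUFA5, an accessory subunit of the matrix arm, was the member called higher. It was at 87.6, 75.6, 82.6 and 83.0 CPM in the low boars and at 91.4, 102, 115 and 128 CPM in the high boars, a log2 fold change of 0.42 (SE 0.13, edgeR adjusted p = 0.041). With library totals alone it was 0.26 and did not pass (edgeR adjusted p = 0.143). NDUFA4, which is now counted with complex IV, was at 24.9, 26.1, 20.1 and 19.8 CPM in the low boars and at 25.9, 40.8, 34.0 and 27.6 CPM in the high boars. L5 fell just under L2, and the log2 fold change of 0.51 did not pass (SE 0.18, edgeR adjusted p = 0.061). A further 14 members of the NDUF families did not pass, with log2 fold changes from -0.73 for NDUFA10 to 0.28 for NDUFS5.

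In complex III, which has a pair of large core proteins, 1 of them was lower. UQCRC1 was at 86.8, 82.6, 79.1 and 75.2 CPM in the low boars and at 67.8, 43.0, 58.0 and 38.9 CPM in the high boars. No boar overlapped, and the log2 fold change was -0.62 (SE 0.18, edgeR adjusted p = 0.039). The call was lost with all 13 Landrace libraries in 1 fit and without L2 and L7 (edgeR adjusted p = 0.124 and 0.055). UQCRC2, the other core protein, was at 155, 146, 140 and 126 CPM in the low boars and at 171, 189, 145 and 189 CPM in the high boars. L7 lay among the low boars, and the log2 fold change of 0.31 did not pass (SE 0.12, edgeR adjusted p = 0.084). UQCR10, a small subunit beside the cytochrome c1 anchor, was at 14.6, 11.9, 10.98 and 15.2 CPM in the low boars and at 8.76, 6.52, 8.61 and 4.00 CPM in the high boars, and it was called lower with a log2 fold change of -0.89 (SE 0.26, edgeR adjusted p = 0.036). UQCR11 did not overlap either, at 0.743 to 1.28 CPM in the high boars and 1.42 to 2.29 CPM in the low boars, but its log2 fold change of -0.74 did not pass (SE 0.30, edgeR adjusted p = 0.087). UQCRFS1, the Rieske iron-sulfur protein, averaged 64.0 ± 10.6 CPM in the high boars and 54.3 ± 4.03 CPM in the low boars (SD, n = 4 each) and UQCRQ 14.1 ± 3.4 CPM and 12.3 ± 1.76 CPM. Neither passed, with log2 fold changes of 0.25 and 0.21 (edgeR adjusted p = 0.177 and 0.421).

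Complex IV is assembled from catalytic subunits encoded in mitochondrial DNA and a shell of nuclear subunits that tune it. COX4I1, a subunit through which ATP slows the enzyme, was at 29.4, 22.5, 33.0 and 34.1 CPM in the low boars and at 11.7, 7.02, 17.9 and 6.42 CPM in the high boars. COX5B, a zinc-binding subunit named after its values were seen, was at 48.0, 33.0, 40.5 and 44.4 CPM in the low boars and at 20.0, 13.8, 26.9 and 13.1 CPM in the high boars. In both genes every high boar lay below every low boar, L6 and L8 lowest and L7 highest of the 4. The log2 fold changes were -1.44 for COX4I1 (SE 0.31, edgeR adjusted p = 0.021) and -1.14 for COX5B (SE 0.24, edgeR adjusted p = 0.021). COX6A1, the widespread form of subunit 6A, averaged 16.5 ± 2.49 CPM in the high boars and 25.4 ± 1.73 CPM in the low boars (SD, n = 4 each), a log2 fold change of -0.60 (SE 0.16, edgeR adjusted p = 0.031). COX5A, COX7A2, COX7A2L, COX7B and COX7C had log2 fold changes from 0.09 to 0.38, and none passed. COX6A2, the muscle form, averaged 3.69 ± 0.85 CPM in the high boars and 4.80 ± 1.36 CPM in the low boars (SD, n = 4 each) and did not pass either, with a log2 fold change of -0.36 (edgeR adjusted p = 0.289).

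**Figure D1:**
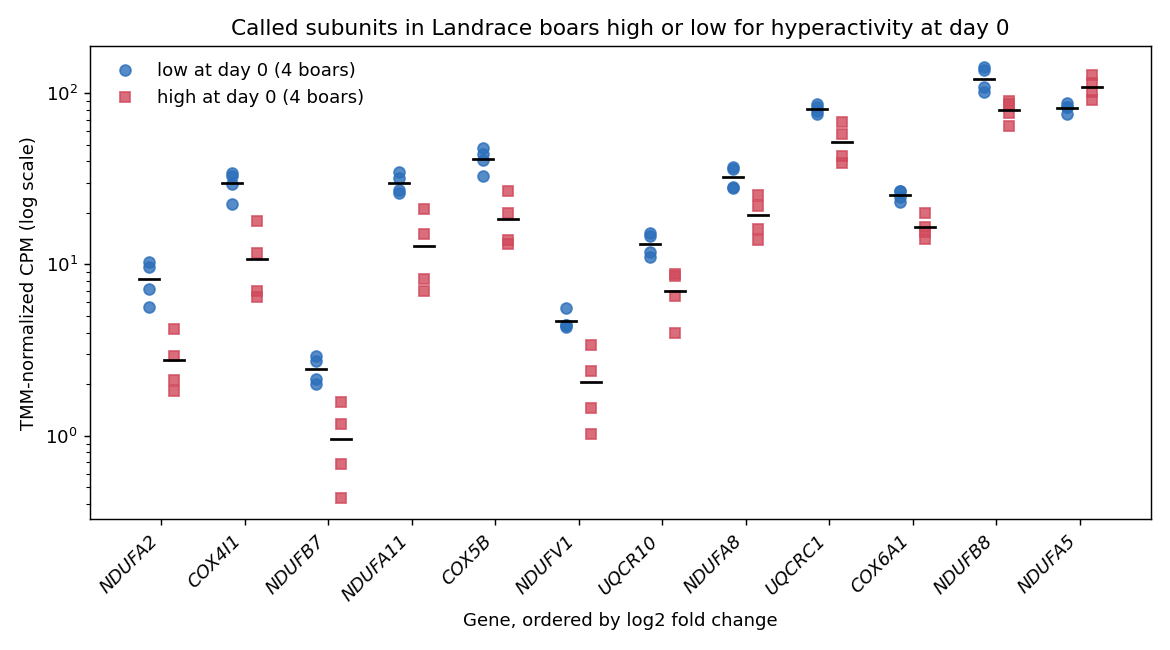
TMM-normalized CPM on a log axis for the 12 members that passed in contrast (i), with blue circles for the 4 Landrace boars low at day 0, red squares for the 4 high boars and black bars for the means. In 11 genes each red square lies below each blue circle, and in NDUFA5 each lies above.

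COX6B2, the germ cell form of subunit 6B, was kept apart. It was at 166, 119, 132 and 142 CPM in the low boars L1 to L4 and at 121, 56.9, 145 and 63.3 CPM in the high boars L5 to L8. L6 and L8 lay below every low boar, and L5 and L7 lay among them. The log2 fold change of -0.50 did not pass (SE 0.28, edgeR adjusted p = 0.186). With L2 and L7, the boars that are also in contrast (iii), left out, it was -0.89 with an edgeR adjusted p of 0.047, and over the other alternatives the adjusted p ran from 0.051 to 0.367. In contrast (iii), the log2 fold change of COX6B2 was -0.35. It was -0.08 without L13 and -0.80 without L2 and L7, and none of these passed. COX6B2 averaged 98.0 ± 43.0 CPM in the high boars there (SD, n = 3) and 125.5 ± 14.1 CPM in the low boars (SD, n = 4), with an edgeR adjusted p of 0.42. By the Duroc labels it averaged 111.8 ± 36.1 CPM in the boars labelled high (SD, n = 5) and 97.5 ± 26.9 CPM in those labelled low (SD, n = 3), with an edgeR adjusted p of 1. Over breeds its level was 106.4 ± 31.7 CPM in 8 Duroc boars and 113.6 ± 35.6 CPM in 13 Landrace boars (SD), with an edgeR adjusted p of 0.999. Its widespread partner COX6B1 and the other testis forms COX7B2 and COX8C were not matched to an identifier.

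COX6A2 and COX6A1 were the only pair of a tissue-restricted and a widespread form in which both genes were members. The log2 ratio of COX6A2 to COX6A1 counts was -2.17 ± 0.40 in the high and -2.44 ± 0.45 in the low boars of contrast (i) (SD, n = 4 each). It was -2.11 ± 0.41 in 3 high and -2.36 ± 0.41 in 4 low boars of contrast (iii), and -2.07 ± 0.56 in 5 Duroc boars labelled high and -1.996 ± 0.20 in 3 labelled low (SD). The ratio was -2.04 ± 0.44 in 8 Duroc and -2.23 ± 0.40 in 13 Landrace boars. In none of the 4 comparisons was the difference larger than the spread between boars, with two-sided exact permutation p-values of 0.4, 0.457, 0.786 and 0.333 in that order and adjusted values of 0.61 or more over the 4.

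Other genes of the pathway were taken from lists of complex II, electron carriers, ATP synthase, assembly factors, regulators and other mitochondrial proteins. In contrast (i), SDHA of complex II, its flavin subunit, fell by 0.97 on the log2 scale (SE 0.23, edgeR adjusted p = 0.023) while SDHC, a membrane anchor, rose by 0.60 (SE 0.17, edgeR adjusted p = 0.033), and the other 2 of 4 did not pass. Of 6 further subunits and carriers, CYC1 (cytochrome c1 of complex III) was lower with a log2 fold change of -1.24 and ETFB with -0.79, and 0 were higher. Of 12 ATP synthase genes tested, ATP5F1D and ATP5ME were lower and 0 higher. Among assembly factors 3 were lower, ECSIT of 12 for complex I, UQCC2 of 6 for complex III and SCO2, a copper chaperone, of 14 for complex IV, and LRPPRC, which stabilizes mitochondrial messenger RNA, was higher. Of 8 regulators tested, GABPA was higher with a log2 fold change of 0.51 and ESRRA lower with -1.18 (edgeR adjusted p = 0.035 and 0.028). Of 11 other mitochondrial proteins, TOMM20 was higher and PHB2 and LETM1 were lower. The 13 mitochondrially encoded subunits had a median log2 fold change of 0.35 and edgeR adjusted p-values from 0.114 for ND3 to 0.87 for ND6. In contrast (iii) their median was 0.80, from 0.46 for ATP8 to 0.96 for ND3, and none passed. Their share of the counts there was 2.0% to 4.02% in the high and 1.1% to 1.97% in the low boars, without overlap.

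Several other measures moved with contrast (i). The share of reads not aligned uniquely was 5.83% to 7.20% in the high boars and 7.53% to 7.92% in the low boars, without overlap. Of 6 elongating spermatid markers PRM1 and TNP2 were lower, with summed levels of 8810 to 11500 CPM in the high and 7870 to 11500 CPM in the low boars. Of 4 round spermatid markers ACR and CATSPER1 were lower, with sums of 737 to 1110 CPM and 788 to 917 CPM. The 5 spermatocyte markers had edgeR adjusted p-values from 0.057 to 0.192, and their sums ran from 1200 to 1920 CPM in the high and from 917 to 1210 CPM in the low boars. Of 4 peritubular and smooth muscle markers MYH11 and DES were lower, with sums of 17.1 to 61.3 CPM in the high and 49.2 to 111 CPM in the low boars. TIE1 of 4 endothelial markers and HBB of red blood cells were lower too, and no marker of Sertoli cells, Leydig cells, spermatogonia, macrophages or epididymis epithelium passed. The part of these measures in the members' differences was not tested.

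In contrast (iii), between high and low change during storage, edgeR called 0 of the 42 members and 0% of 12824 genes. The likelihood ratio test and DESeq2 called 0 members too. At an unadjusted p under 0.05 there were 10 members, 23.8%, against 19.8% of all genes. This number was 1 without L12 and 1 without L13, 3 without L2 and 14 without L7. The share of all genes in these fits is not given. The members' median log2 fold change was -0.01, with 21 of 42 positive. The groups did not overlap in 3 members, the high boars lying below in 2, where 8.73% of 12744 genes did, and above in 1, where 7.46% did.

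The member with the highest log2 fold change was COX7B, a small subunit of complex IV. It was at 27.8, 47.0 and 22.7 CPM in the high boars L7, L13 and L15 and at 20.8, 19.4, 16.6 and 18.9 CPM in the low boars L2, L9, L10 and L12. The groups did not overlap, L13 stood highest, and the log2 fold change of 0.78 did not pass (SE 0.24, edgeR adjusted p = 0.24). Without L13 it was 0.44. NDUFA4 and NDUFS1 followed with log2 fold changes of 0.56 and 0.45, which were 0.32 and 0.14 without L13. At the other end stood NDUFB7 with -0.81, NDUFA11 with -0.77 and NDUFV1 with -0.73, each with an edgeR adjusted p from 0.24 to 0.25. NDUFA11 was at 21.2, 9.96 and 14.9 CPM in the high boars and at 26.0, 24.2, 17.6 and 38.1 CPM in the low boars, so that L7 lay above L10. UQCRC1 did not overlap, at 58.0, 16.2 and 60.9 CPM in the high boars and 82.6, 72.0, 63.2 and 67.7 CPM in the low boars, and NDUFB10 did not overlap either, at 12.3 to 13.6 CPM and 14.02 to 15.3 CPM. Neither of these passed (edgeR adjusted p = 0.317 and 0.503).

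By the labels contrasts (i) and (iii) share L2 and L7, so their values are set side by side. The 3 lowest members in contrast (iii) had log2 fold changes of -1.32, -1.19 and -1.14 in contrast (i). Without L2 and L7, contrast (iii) gave -1.20 for NDUFB7, -1.11 for NDUFA11 and -1.01 for NDUFV1, with edgeR adjusted p-values of 0.304 to 0.309. Over the 5 boars of contrast (iii) that are not in contrast (i), the groups were 2 against 3.

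**Figure D2:**
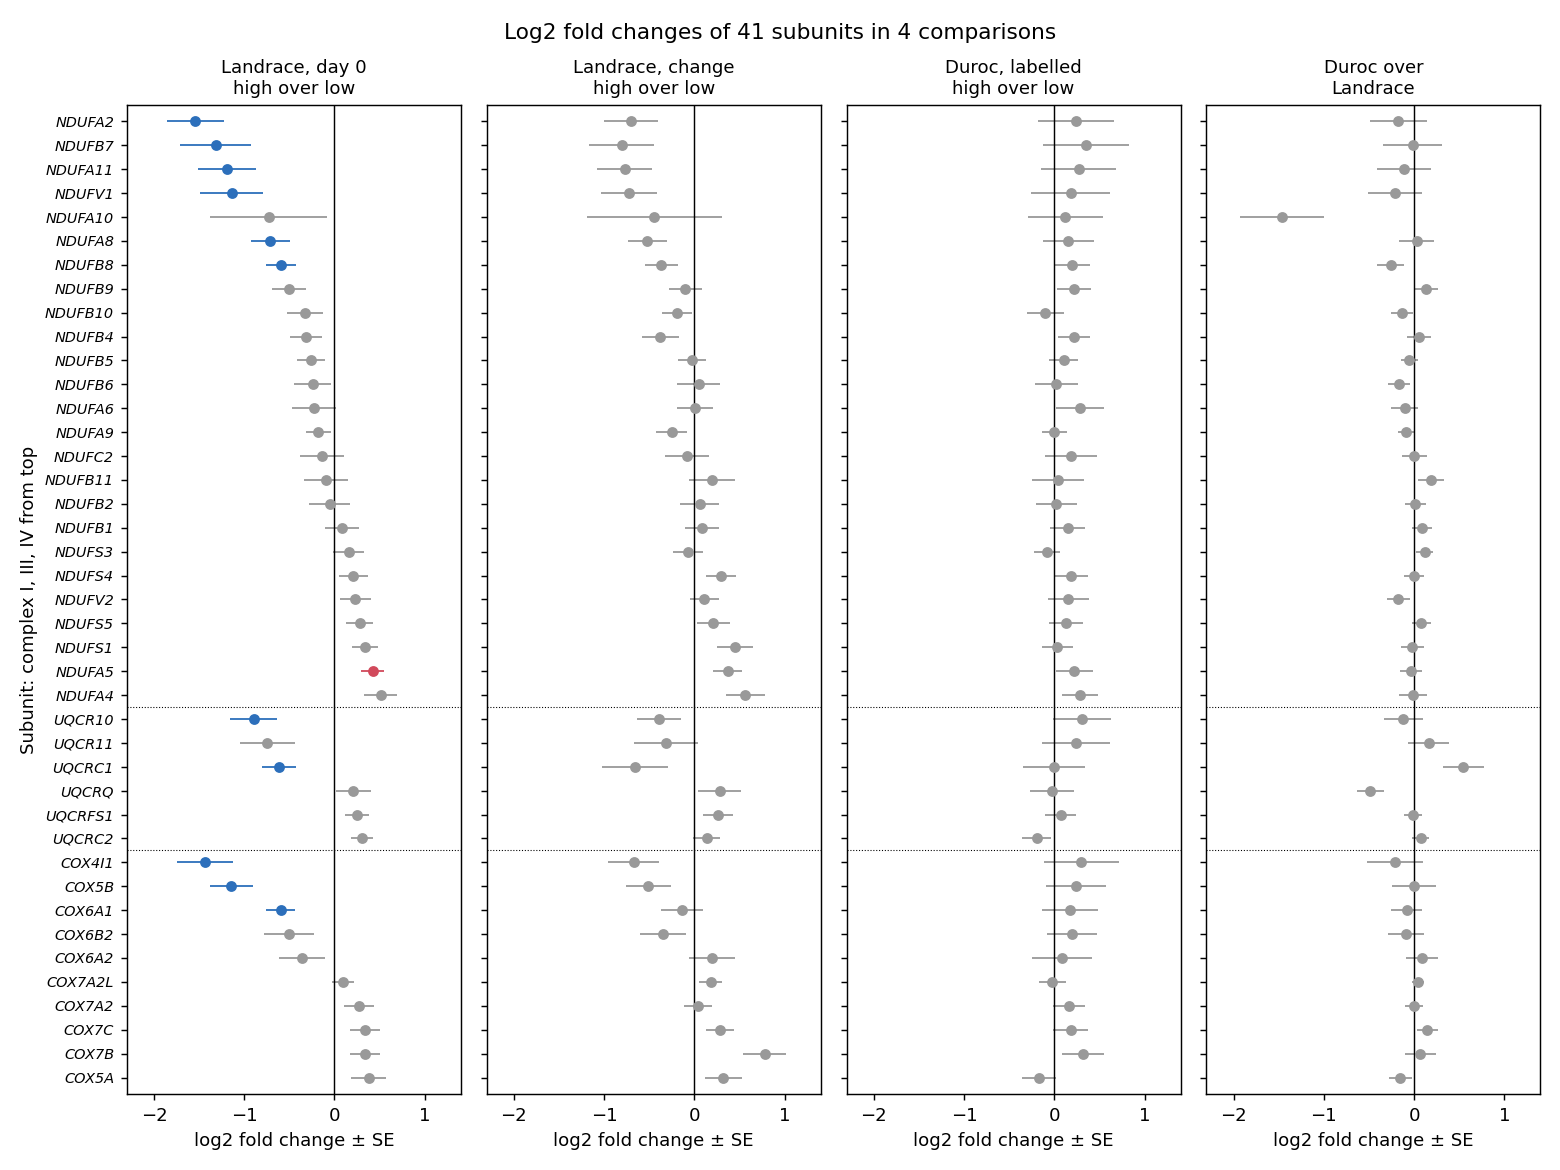
Log2 fold change with its standard error for 41 of the 42 members, ordered within complexes I, III and IV by their value in contrast (i), in contrasts (i), (iii) and (ii) and between the breeds. Blue and red mark members at an adjusted p under 0.05, 11 lower and 1 higher in contrast (i), and grey the members that did not pass, which are all 41 in the other 3 panels.

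The 11 lower members were also followed as a group in all 21 boars. For each boar the mean log2 CPM of these 11 was set against that of the other 31 members. In the boars of contrast (i), which chose the 11, the difference ran from -0.57 to -0.32 in the low and from -2.03 to -1.06 in the high boars, and this is a description only. In the boars that were not used to choose them, it was -1.75 in L13 and -1.26 in L15, both with a high change, and -0.88, -0.97 and -0.40 in L9, L10 and L12, with a low change. These 2 groups, 2 boars against 3, did not overlap, and the difference between them was not tested. The mean log2 CPM of the elongating spermatid markers set the same boars apart, at 7.76 and 8.31 in L13 and L15 and at 9.21, 8.90 and 9.04 in L9, L10 and L12. In contrast (i) the marker means overlapped, at 8.98, 8.61, 8.86 and 8.75 in L5 to L8 and at 9.24, 8.89, 8.96 and 9.15 in L1 to L4. In the 8 Duroc boars, also not used to choose the 11 members, the difference ran from -1.70 in D2 to -0.48 in D5, a range that overlaps both Landrace groups. The Duroc boars labelled high held both ends of it, and those labelled low, at -1.40, -1.04 and -0.72, lay between. The 3 Duroc boars with the lowest difference, D2, D3 and D6, also had the lowest marker means, 8.71, 8.71 and 8.63, where D1, D4 and D5 had 9.11, 9.28 and 9.17. In D2, D6, D7, D4, D9 and D1, ordered by the difference, the share of reads not aligned uniquely rose from 6.0% to 8.28%. It was 7.14% in both D3 and D5, which lay near opposite ends of the difference. In L13, L15, L10, L9 and L12, in the same order, it was 5.98%, 7.17%, 6.64%, 7.17% and 8.12%. The part of these measures in the difference was not tested.

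**Figure D3:**
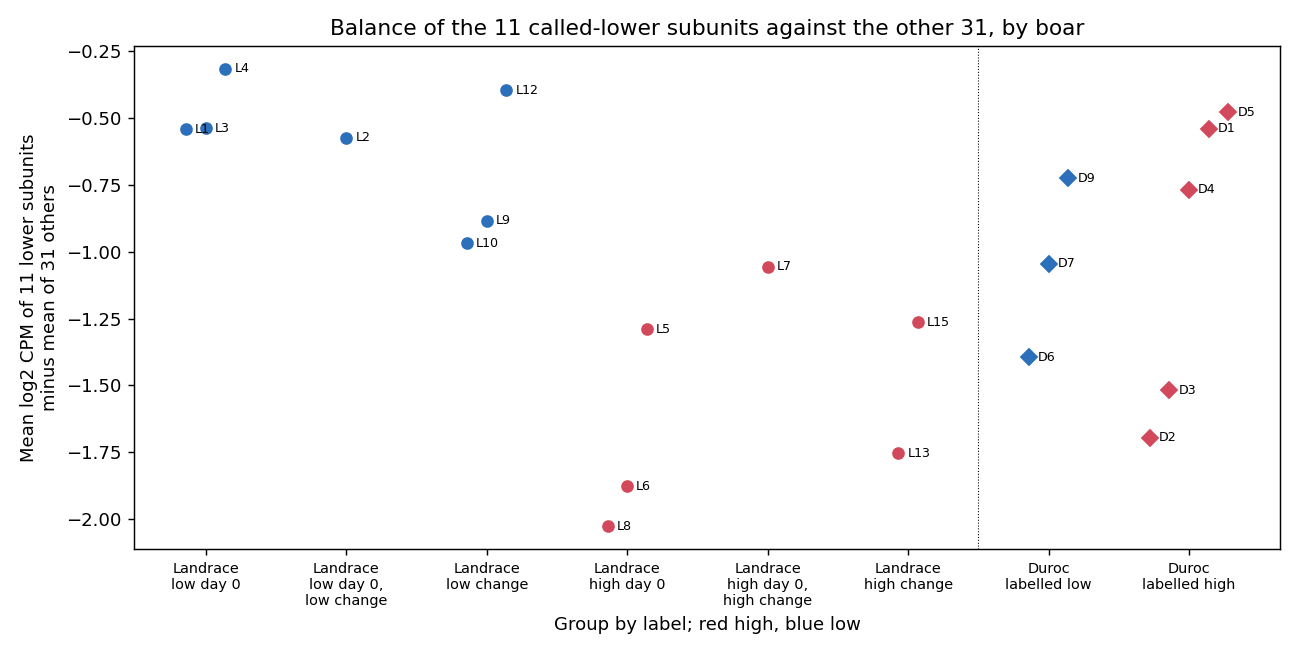
Mean log2 CPM of the 11 members called lower in contrast (i) minus that of the other 31, for each of 21 boars by label group, with circles for Landrace, diamonds for Duroc, blue for low and red for high. Landrace low boars lie between -0.97 and -0.32, Landrace high boars between -2.03 and -1.06, and Duroc boars between -1.70 and -0.48 with the labels intermixed. The 8 boars of contrast (i) were used to choose the 11 genes.

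By the Duroc labels, contrast (ii), edgeR called 0 of the 42 members and 0% of 13043 genes. The likelihood ratio test and DESeq2 called 0 members too, and 0 members had an unadjusted p under 0.05, where 1.21% of all genes did. Of the 42 log2 fold changes 35 were positive, with a median of 0.16 against 0.04 for all genes, and the median was 0.03 without D6, 0.09 without D1 and 0.11 without D5. The 42 values ran from -0.20 for UQCRC2 to 0.35 for NDUFB7, and the groups overlapped in every member. NDUFB7 was at 2.69, 0.880, 0.712, 1.94 and 2.38 CPM in D1 to D5 and at 0.993, 1.49 and 1.54 CPM in D6, D7 and D9. D2 and D3, labelled high, lay below all 3 boars labelled low, and D1, D4 and D5 above them. COX4I1 was at 25.02, 7.74, 9.12, 23.2 and 23.0 CPM in D1 to D5 and at 9.07, 15.2 and 18.6 CPM in D6, D7 and D9, with the same 3 boars at the top and D2 at the bottom. Its log2 fold change was 0.30 (SE 0.41, edgeR adjusted p = 1).

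Whether the effect at day 0 differs between the breeds was tested as an interaction over the 16 boars of contrasts (i) and (ii). No member passed in edgeR's test, where 0% of 12920 genes did, and the smallest adjusted p of a member was 0.329. The likelihood ratio test and DESeq2 called 0 members too. At an unadjusted p under 0.05 there were 12 members, 28.6%, against 15.1% of all genes, with 10 of them higher in Duroc relative to Landrace by the deposited labels. As the Duroc labels could not be checked by name against the study's table, this direction and the sizes are those of the labels only. For NDUFA2, at the upper end, the difference in log2 fold change was 1.76 (SE 0.56), where the separate fits gave 0.24 in Duroc as labelled and -1.54 in Landrace, and for COX5A, at the lower end, it was -0.58 (SE 0.25).

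Between the breeds, edgeR called 0 of the 42 members in 8 Duroc against 13 Landrace boars, where 2.77% of 12835 genes passed. The likelihood ratio test called 1 member, 2.38% against 3.87% of all genes, and DESeq2 called 2, 4.76% against 4.18%. At an unadjusted p under 0.05 there were 3 members, 7.14%, against 12.2% of all genes. The median log2 fold change of Duroc over Landrace was -0.01 for the members and -0.01 for all genes, and 39 of the 42 members lay between -0.26 and 0.18. The 3 outside were NDUFA10, UQCRQ and UQCRC1.

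NDUFA10 is an accessory subunit of the membrane arm on chromosome 15 from 138999174 to 139031892 (Sscrofa11.1, RefSeq annotation). It had the widest spread of any member in Landrace, with an SD of 1.31 on the log2 scale, where the other 41 members had at most 0.84. In the 8 Duroc boars it ran from 2.87 to 7.90 CPM with a median of 5.51, and in the 13 Landrace boars from 2.70 to 38.5 CPM with a median of 8.04. Of the Landrace boars 8 lay above the highest Duroc boar. High values occurred in low and high groups alike, with 27.2 and 38.5 CPM in L1 and L3, 25.5 CPM in L7 and 30.0 CPM in L12, while L6 and L13 were at 2.70 and 2.81 CPM. The log2 fold change of -1.47 did not pass (SE 0.46, edgeR adjusted p = 0.098), and it did with a likelihood ratio test, with DESeq2 and without L13 (adjusted p = 0.034, 0.036 and 0.049).

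UQCRQ, which sits beside cytochrome b in complex III, ran from 6.43 to 12.1 CPM with a median of 9.17 in Duroc and from 8.83 to 19.2 CPM with a median of 11.9 in Landrace. Of the Duroc boars 3 lay below the lowest Landrace boar, and of the Landrace boars 6 lay above the highest Duroc boar. The log2 fold change was -0.48 (SE 0.15, edgeR adjusted p = 0.079), and DESeq2 alone put it under the threshold (adjusted p = 0.026). UQCRC1 ran from 43.5 to 165 CPM with a median of 82.9 in Duroc and from 16.2 to 86.8 CPM with a median of 67.7 in Landrace. D5 was highest and L13 lowest, and the log2 fold change of 0.55 did not pass (SE 0.23, edgeR adjusted p = 0.288). Without D5 it was 0.37, and without L13 it was 0.47.

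**Figure D4:**
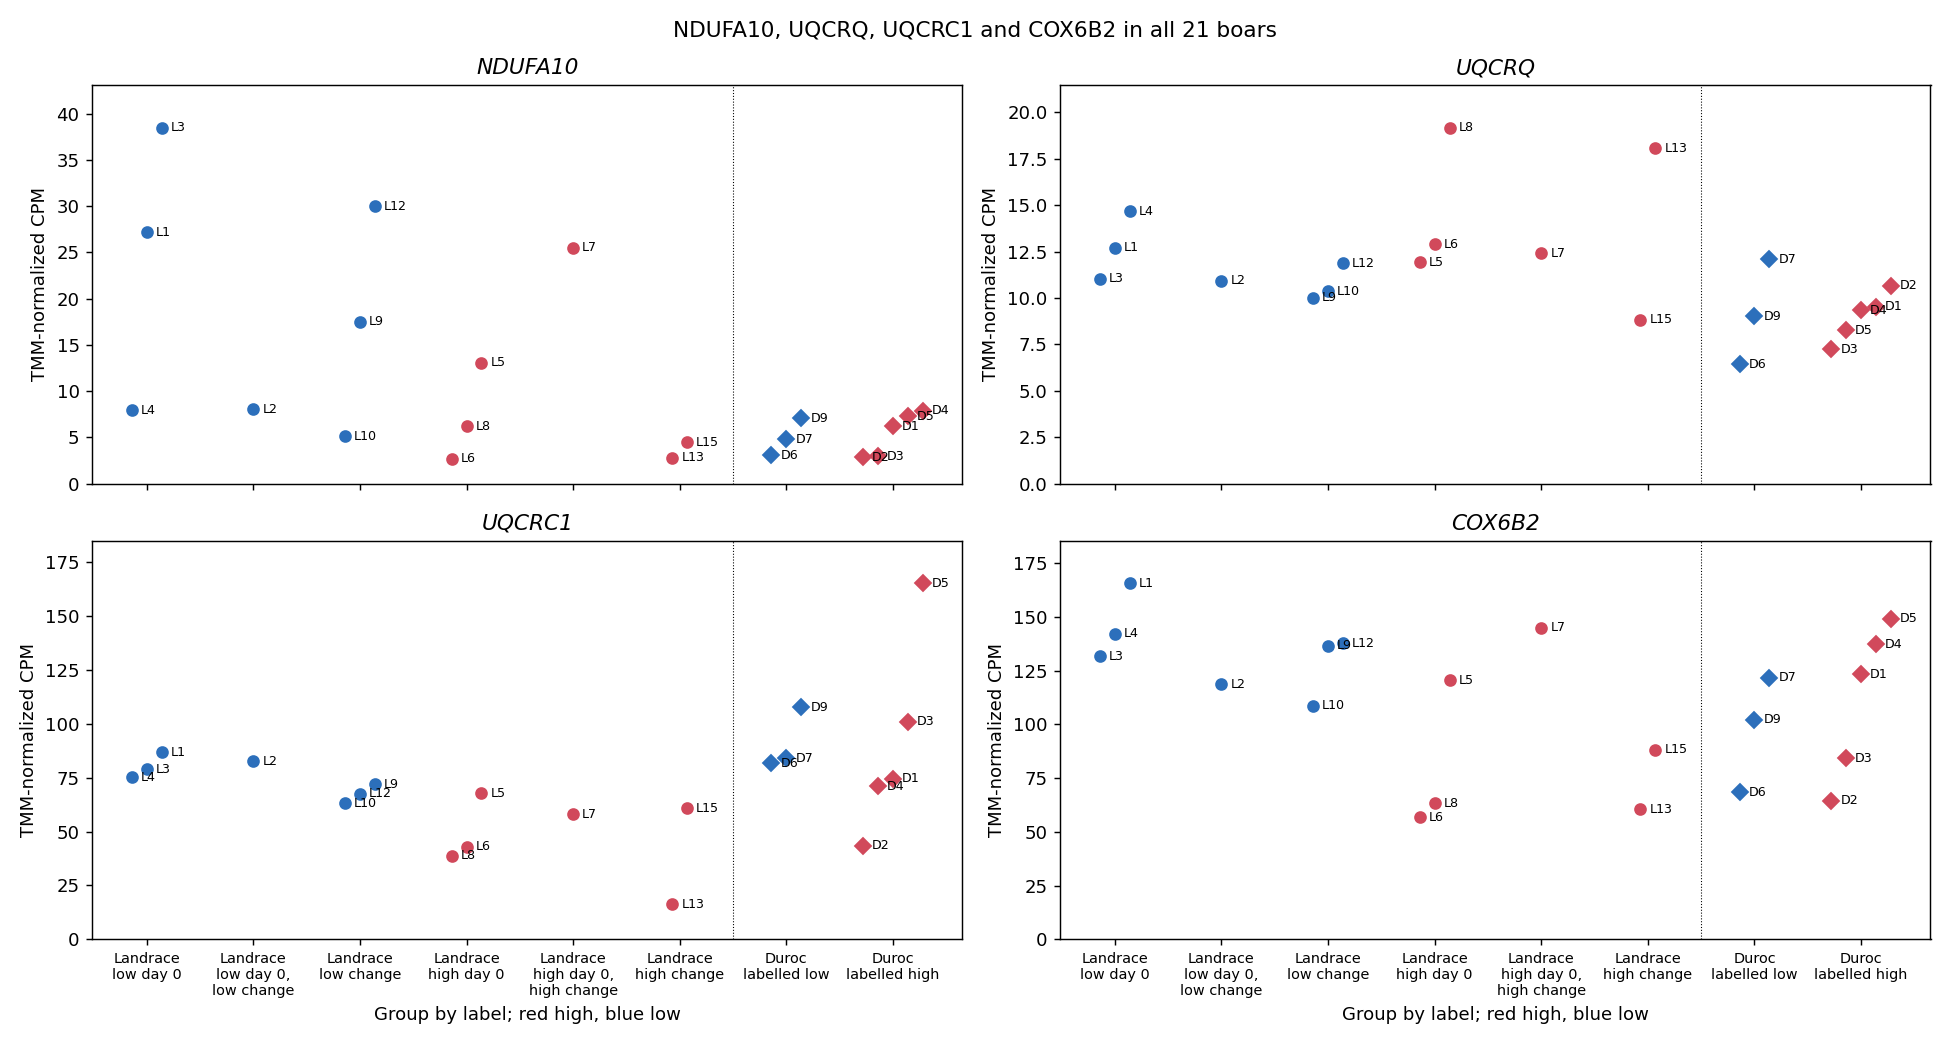
TMM-normalized CPM of NDUFA10, UQCRQ, UQCRC1 and COX6B2 in each of 21 boars by label group, with circles for Landrace, diamonds for Duroc, blue for low and red for high. NDUFA10 exceeds 25 CPM in 4 Landrace boars and stays under 8 CPM in all 8 Duroc boars, UQCRC1 reaches 165 CPM in D5 and 16.2 CPM in L13, and COX6B2 is lowest in L6, L13, L8 and D2.

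Of the 42 members, 31 had a place by symbol in the RefSeq annotation of Sscrofa11.1, and they lie on many chromosomes. Among the 9 members called lower in contrast (i) that had a place, NDUFV1 (4958508 to 4964211), NDUFB7 (64718892 to 64723631), NDUFA11 (73131029 to 73137921) and NDUFA2 (142359000 to 142361126) lie on chromosome 2, far from each other. COX6A1 (40408600 to 40410810), UQCR10 (46783340 to 46786140) and NDUFB8 (111626827 to 111633548) lie on chromosome 14, COX5B (56630297 to 56632107) on chromosome 3 and NDUFA8 (262243225 to 262258186) on chromosome 1. NDUFA5, the member called higher, lies on chromosome 18 from 23881872 to 23896699.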

How the data were processed

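RNA was prepared from testis with 1 library per boar (13 Landrace and 8 Duroc), as stranded mRNA libraries sequenced from 1 end. Per the labels and the study's methods, reads were trimmed for base quality with Trimmomatic 0.36, STAR placed the reads on Sscrofa 11.1, and HTSeq, set for reverse-stranded libraries, gave a number per Ensembl gene. The deposited values are these raw counts for 25880 genes, not normalized. Symbols were matched by Ensembl identifier for 14857 of these, and places by symbol in the RefSeq annotation of Sscrofa11.1. Groups came from the deposited labels.

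The tools were edgeR 4.0.16 (on limma 3.58.1) and, as an alternative, DESeq2 1.42.0, under R 4.3.3. A gene entered a contrast if 4 or more of its libraries reached 1 CPM (11 for the breeds, 8 for the interaction). After TMM normalization, edgeR's quasi-likelihood test was run on all such genes, and p-values were adjusted by Benjamini and Hochberg's method with a threshold of 0.05. The study used edgeR's likelihood ratio test, which was an alternative here. A standard error is the log2 fold change over the square root of its F statistic. The log2 ratio of COX6A2 to COX6A1 used counts plus 0.5 and a two-sided exact permutation test over boars. Log2 CPM used a prior count of 2. Nothing in the labels says that boars of a group are related or shared a batch, and p-values set a group difference against the spread between these boars. The fits were tested on simulated data. Depths of 41358671 to 125576407 counts per library limit the members of fewest reads most.

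The members and the gene lists were chosen with earlier results of these data known. Genes named in the text were the tissue-restricted forms and their partners, the core subunits, and, in each comparison, the 3 members at either end of the log2 fold changes, with any others said to be named after their values were seen or listed to account for every member. The values of 1 member are not reported here. Variant calls, promoter motifs and a correction for GC content were not analysed here.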

Additional observations from a re-analysis of the deposited data

Results flagged for a closer look

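Among 140 sets of values, 27 named genes and the COX6A2 to COX6A1 ratio in 5 groups of 4 to 8 boars, 5 had 1 boar far from the rest by Dixon's test at the 95% level. Chance alone sets apart about 1 in 20. In the high boars of contrast (i), L6 had 4.96 CPM of COX6A2, where the next boar had 3.37, and L8 had 19.2 CPM of UQCRQ, where the next had 12.9. In the low boars of contrast (i), L3 had 5.57 CPM of NDUFV1, next to 4.40, and L1 had 60.3 CPM of UQCRFS1, next to 52.8. In the low boars of contrast (iii), L9 had 585 CPM of COX7A2, next to 430. The interaction of breed and hyperactivity at day 0 passed for no member in edgeR's test, with 12 members at an unadjusted p under 0.05 and 0 called by DESeq2.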

How the results depend on the processing

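Alternatives were DESeq2, a likelihood ratio test, a robust fit, scaling by relative log expression or by library totals alone, no filter on low counts, a filter at 5 CPM, leaving out the 13 mitochondrially encoded genes, leaving out boars, and other sets of boars. In contrast (i) the 12 called members became 0 without L3 or L6, 3 without L1 or L8 and 5 without L4, where 0.00786%, 0.00775%, 7.56%, 9.49% and 11.6% of all genes passed in that order, and leaving out each boar in turn gave from 0 to 16, with the fewer boars of these fits. The 8 alternatives that kept the same boars gave from 9 to 13, of which 9 to 12 were shared with the 12. Between the breeds, where 0 members were called, 1 was called by the likelihood ratio test, 2 by DESeq2 and 1 without L13 (3.87%, 4.18% and 3.68% of all genes), the last added after seeing the data, as was leaving out D5, which gave 0. Library totals alone moved the median of the members from -0.20 to -0.36 in contrast (i) and from 0.22 to 0.39 in the interaction, as it moved the median of all genes from 0.03 to -0.12 and from -0.01 to 0.16, and relative to all genes the members stood at -0.24 in contrast (i) under either scaling. In contrast (i) it left 0 members called higher and 12 lower. Leaving out each boar in turn in contrasts (iii) and (ii) called 0 members each time. No named gene changed sign by more than its standard error, and the permutation p-value for the isoform ratio stayed above 0.05 throughout. Among calls of named genes outside the fits without 1 boar, COX6A1 was lost with no filter (edgeR adjusted p = 0.051), NDUFA5 with library totals alone, at 5 CPM and without L2 and L7, and UQCRC1 with all 13 Landrace libraries in 1 fit and without L2 and L7, while NDUFA4 was gained with DESeq2 and with relative log expression normalization. The cause of these changes was not tested. No paired analysis was possible because the labels do not pair boars between groups. Depth limits NDUFB7 and UQCR11 most, with 31 and 41 reads in their shallowest library.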
